A study of Papio anubis with 24 samples.

Results

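The miR-99, miR-100, miR-125 and let-7c microRNAs (miRNAs) come from 3 related gene clusters, and 10 of their mature miRNAs were followed in endometriotic lesions and in the eutopic endometrium (the lining in its normal place) of the same baboons. They were chosen by name out of 2656 mature miRNAs in the count table. The miR-99a/let-7c/miR-125b-2 cluster gave hsa-miR-99a-5p, hsa-miR-99a-3p, hsa-let-7c-5p and hsa-miR-125b-2-3p. The miR-100/miR-125b-1 cluster gave hsa-miR-100-5p and hsa-miR-125b-1-3p, and the miR-99b/miR-125a cluster gave hsa-miR-99b-5p, hsa-miR-99b-3p and hsa-miR-125a-5p. The remaining member, hsa-miR-125b-5p, is the same mature miRNA from both miR-125b precursors. It was listed with 496954 counts under miR-125b-2 and 497290 under miR-125b-1, and the higher entry was used. The prefix hsa marks the human reference names and is left out from here on.

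A miRNA is cut from the arms of a hairpin precursor, and its seed, the bases near the 5′ end, pairs with the messenger RNAs that it represses. The 5p and 3p names give the arm. The 3 clusters are copies of an old arrangement that joins a member of the miR-99/100 family, a let-7 miRNA and a miR-125 miRNA. The miR-99/100 family represses the growth kinase MTOR and the receptor IGF1R in human cells, miR-125 miRNAs are relatives of the timing gene lin-4 of Caenorhabditis elegans, and let-7 miRNAs repress LIN28, HMGA2 and RAS genes. The 3p arms of miR-125b differ between its precursors, and so can tell the precursors apart.

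Small RNA from whole tissue of 12 female baboons (Papio anubis) was sequenced, a lesion and the eutopic endometrium from each. In 4 animals the disease was spontaneous. In the other 8 it had been induced by placing menstrual tissue in the peritoneal cavity, and the tissues were taken 15 months later. Reads were matched to human miRNAs, so that a baboon miRNA that differs from the human one may be undercounted.

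The 24 libraries held 2592999 to 7573913 counts, and every member was counted at least 51 times in every library. Levels are given in CPM, counts scaled to the depth of the library, after TMM scaling, which sets libraries to a common scale by their trimmed mean of log ratios. The tissue labels were read against miRNAs of other cell types. The summed level of 8 epithelial miRNAs was 237.1 to 7591 CPM in lesions and 5022 to 20179 CPM in eutopic endometria, and 7 of 7 tested fell in lesions. The summed level of miR-143 and miR-145, the 4 smooth muscle miRNAs, was 107312 to 1657740 CPM in lesions and 26511 to 433447 CPM in eutopic endometria, and 4 of 4 rose. The largest of these sums is more than the CPM of a whole library because TMM does not scale to the library total. The eutopic endometria of the spontaneous animals PA5655 and of PA6303 stood apart from the other 10, with 433447 and 326995 CPM of smooth muscle miRNAs against at most 92448 CPM.

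In lesions the most abundant member was miR-125a-5p, with a median of 7285 CPM, followed by miR-125b-5p at 6247 CPM and let-7c-5p at 6188 CPM. In eutopic endometrium miR-125a-5p also led, at 4067 CPM, but miR-99b-5p came next at 2707 CPM, ahead of miR-125b-5p at 1540 CPM and let-7c-5p at 1426 CPM. This order was loose, since miR-99b-5p was above miR-125b-5p in 8 of 12 eutopic endometria. miR-125b-5p and let-7c-5p could not be put in order in either tissue, because the first was above the second in 4 of 12 lesions and in 6 of 12 eutopic endometria. miR-99b-5p and miR-100-5p were not separated in lesions either, where miR-99b-5p was the higher in 6 of 12. At the low end were the 3p arms, with medians of 673.8 CPM for miR-125b-2-3p, 129.7 for miR-125b-1-3p, 83.76 for miR-99a-3p and 29.15 for miR-99b-3p in lesions. Together the 10 members made up 1.54% to 3.16% of all counts in lesions and 1.19% to 2.87% in eutopic endometria.

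**Figure D1:**
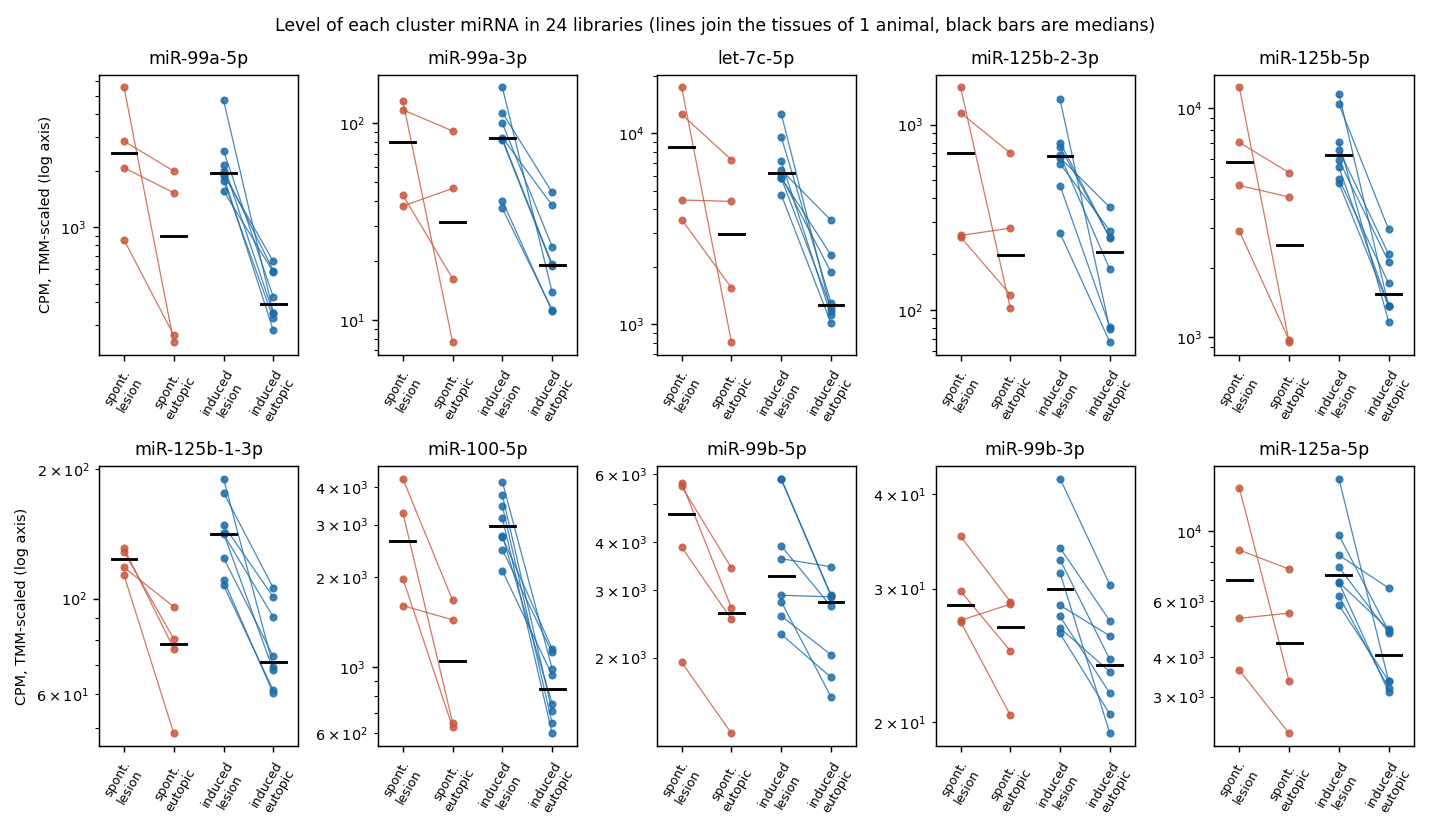
Level of each of the 10 miRNAs in CPM (log axis) in spontaneous lesions, spontaneous eutopic endometria (4 animals), induced lesions and induced eutopic endometria (8 animals), with a line joining the tissues of an animal and a black bar at each median. The induced lesions lie above all induced eutopic endometria for miR-99a-5p, let-7c-5p, miR-125b-5p, miR-125b-1-3p and miR-100-5p.

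The first comparison asked how lesions differ from the eutopic endometrium over all 12 animals. All 10 members rose in lesions, by a median log2 fold change of 1.73. The 4 miRNAs of the miR-99a/let-7c/miR-125b-2 cluster and the shared miR-125b-5p rose between 3.40 and 4.44 times. In the miR-100/miR-125b-1 cluster miR-100-5p rose 3.23 times and miR-125b-1-3p 1.77 times, and the 3 of the miR-99b/miR-125a cluster rose between 1.25 and 1.82 times. Higher levels that passed an adjusted p of 0.05 were found for 25.6% of the 527 miRNAs tested, and the median log2 fold change of all of them was −0.14. In bulk tissue more cells of a type and more RNA per cell cannot be told apart.

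miR-99a-5p, which gives the first cluster its name, lay between 856.1 and 5548 CPM in lesions with a median of 2030, and between 244.8 and 1987 CPM in eutopic endometria with a median of 388.3. The lesion had the higher level in 12 of 12 animals, although the groups overlapped, since 2 eutopic endometria, PA5655 and PA6303, were above the lesion of PA6627. The log2 fold change was 2.15 (standard error 0.33, adjusted p = 3.03e-04). Every adjusted p of a log2 fold change here is from edgeR's quasi-likelihood test, blocked by animal where both tissues are compared, with Benjamini-Hochberg adjustment over all miRNAs tested. let-7c-5p, the let-7 miRNA of this cluster, lay between 3536 and 17396 CPM in lesions with a median of 6188, and between 808.7 and 7259 CPM in eutopic endometria with a median of 1426. It rose by 1.96 on the log2 scale (standard error 0.34, adjusted p = 5.17e-04), again in 12 of 12 animals but with overlapping groups. In PA6303 the levels were nearly the same, 4477 CPM in the lesion and 4400 CPM in the eutopic endometrium.

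miR-125b-2-3p, the arm that marks the miR-125b precursor of the same cluster, lay between 247.7 and 1591 CPM in lesions and between 67.11 and 702.7 CPM in eutopic endometria, with medians of 673.8 and 205.5 CPM. It rose by 1.77 (standard error 0.34, adjusted p = 8.79e-04) in 11 of 12 animals. miR-99a-3p, the rarer arm of the miR-99a hairpin, rose by 1.76 (standard error 0.32, adjusted p = 7.01e-04), also in 11 of 12 animals. The exception was PA6303 for both of them. miR-125b-5p, which both miR-125b clusters can supply, had a median of 6247 CPM in lesions (2900 to 12304) and of 1540 CPM in eutopic endometria (949.5 to 5216), and rose by 1.80 (standard error 0.27, adjusted p = 2.91e-04) in 12 of 12 animals.

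miR-100-5p, a close sequence relative of miR-99a-5p, lay between 1607 and 4278 CPM in lesions with a median of 2958, and between 600.6 and 1673 CPM in eutopic endometria with a median of 847.6. Its log2 fold change was 1.69 (standard error 0.20, adjusted p = 7.28e-05), in 12 of 12 animals, and it had rank 3 of the 527 miRNAs when ordered by p. The overlap was small, between the lesion of PA5655 at 1607 CPM and the eutopic endometrium of PA6303 at 1673 CPM. The other member of its cluster, miR-125b-1-3p, rose less, by 0.82 (standard error 0.12, adjusted p = 2.91e-04) in 12 of 12 animals. Its levels did not overlap, with 107.4 to 189.9 CPM in lesions and 48.69 to 105.9 CPM in eutopic endometria, although the gap was narrow. It was the only member without overlap, and 0.759% of the 527 miRNAs were higher in every lesion than in every eutopic endometrium.

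The miR-99b/miR-125a cluster moved little, as miR-125b-1-3p did. miR-99b-5p lay between 1946 and 5837 CPM in lesions with a median of 3744, and between 1272 and 3446 CPM in eutopic endometria with a median of 2707, so that the groups overlapped widely. It rose by 0.60 (standard error 0.13, adjusted p = 0.00146) in 12 of 12 animals. miR-125a-5p rose by 0.86 (standard error 0.19, adjusted p = 0.00189) in 11 of 12 animals, with medians of 7285 CPM in lesions and 4067 CPM in eutopic endometria. miR-99b-3p, at 26.18 to 41.88 CPM in lesions and 19.34 to 30.36 CPM in eutopic endometria, rose by 0.32 (standard error 0.12, adjusted p = 0.0362) in 11 of 12 animals, a call that was lost without a filter on low counts (adjusted p = 0.329). It was also lost, at adjusted p values of 0.0502 to 0.0793, when any 1 of PA7254, PA7255, PA7258, PA7457, PA7223, PA7524, PA6303 and PA6627 was left out.

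The size of these rises depended on the scale. miR-143-3p, the smooth muscle miRNA, alone took 13.9% to 71.7% of the counts in lesions and 4.88% to 31.0% in eutopic endometria. With library totals in place of TMM, the median log2 fold change of all miRNAs was −0.98, that of the members was 0.87, and 6 of 10 members passed, the 4 of the miR-99a/let-7c/miR-125b-2 cluster, miR-125b-5p and miR-100-5p. On that scale 7.21% of the 527 miRNAs were higher. The others were near or below 0 on that scale, miR-125a-5p at 0.025, miR-125b-1-3p at −0.030, miR-99b-5p at −0.25 and miR-99b-3p at −0.53, so that their direction turned or was lost. Relative to the median of all miRNAs, all 10 members were higher under both scalings. A change of scaling moves every miRNA of a library alike, so it could not test this relative position. Without PA5655 and PA6303, an alternative chosen after seeing the data, 9 of 10 members rose, all but miR-99b-3p (adjusted p = 0.131), against 24.8% of 524 miRNAs, and the members' median was 1.93.

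**Figure D2:**
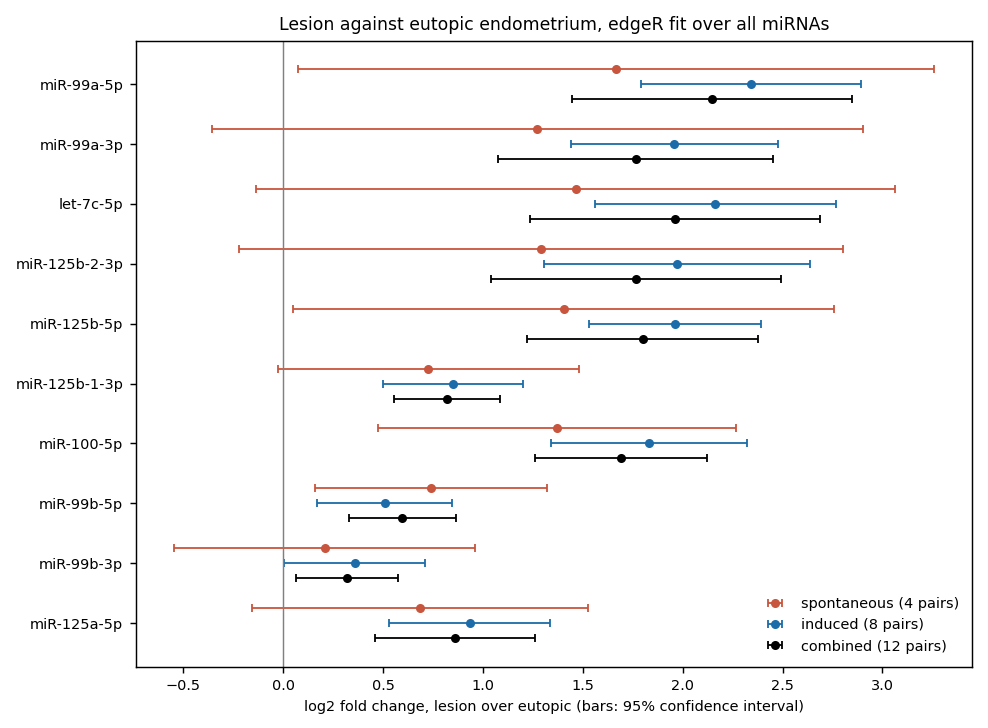
Log2 fold change of lesion over eutopic endometrium for the 10 miRNAs in the spontaneous, induced and combined comparisons, with 95% confidence intervals from the edgeR fit and a line at 0. The intervals of the 8 induced pairs are above 0 for every member, and those of the 4 spontaneous pairs are wide and reach below 0 for 6 of the 10 members.

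In induced disease, 9 of 10 members rose in lesions, all but miR-99b-3p, and each of the 10 was at a higher level in the lesion in 8 of 8 animals. The background was 20.7% of 507 miRNAs higher, with a median log2 fold change of −0.14 against 1.89 for the members. miR-99a-5p was highest in its log2 fold change, at 2.34 (standard error 0.25, adjusted p = 2.18e-04), followed by let-7c-5p at 2.16, miR-125b-2-3p at 1.97, miR-125b-5p and miR-99a-3p at 1.96 each and miR-100-5p at 1.83. miR-125a-5p followed at 0.93, miR-125b-1-3p at 0.85 and miR-99b-5p at 0.51 (adjusted p = 0.0208).

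Levels of 5 of the 10 members did not overlap between induced lesions and eutopic endometria, which was so for 4.73% of the 507 miRNAs. miR-99a-5p lay between 1558 and 4732 CPM in induced lesions and between 282.5 and 658.0 CPM in induced eutopic endometria, with medians of 1949 and 388.3 CPM. let-7c-5p lay between 4768 and 12664 CPM in induced lesions and between 1017 and 3509 CPM in induced eutopic endometria. The lowest lesion was also above the highest eutopic endometrium for miR-125b-5p (4692 and 2945 CPM), miR-100-5p (2102 and 1152 CPM) and, by little, miR-125b-1-3p (107.4 and 105.9 CPM). The lesion of PA7524 was the highest of the induced lesions for miR-99a-5p, let-7c-5p, miR-125b-5p, miR-125b-2-3p, miR-99a-3p, miR-99b-5p and miR-125a-5p, but not for miR-100-5p (2720 CPM), miR-125b-1-3p or miR-99b-3p. It held 982311 CPM of smooth muscle miRNAs and the second lowest epithelial sum of the induced lesions, 1333 CPM.

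With library totals, miR-125b-1-3p (−0.13), miR-99b-5p (−0.46), miR-99b-3p (−0.62) and miR-125a-5p (−0.030) were below 0 in the induced comparison, whose median over all miRNAs was then −1.10. The call of miR-99b-5p was also lost without PA7254 (adjusted p = 0.0541), without PA7524 (0.0522), without a filter (0.0874) and without the animal as a block (0.0680).

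**Figure D3:**
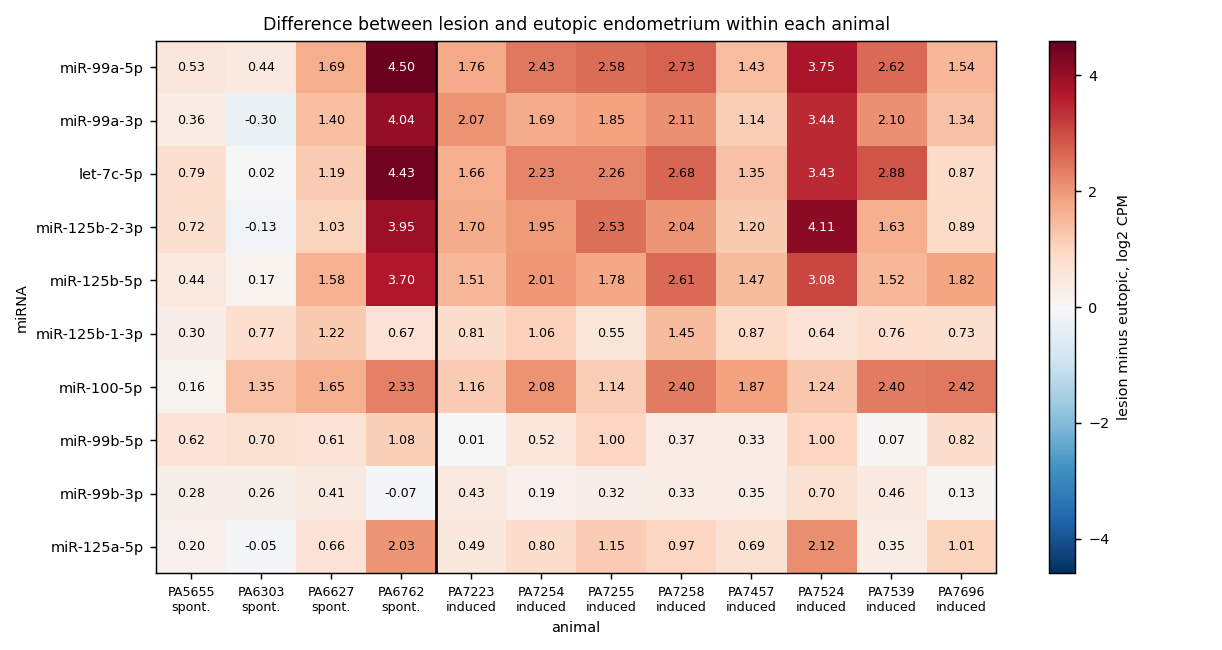
Difference between lesion and eutopic endometrium in log2 CPM for each miRNA (down the page) in each animal (across), spontaneous animals left of the line and induced animals right of it, with red for higher and blue for lower in the lesion. PA6762 and PA7524 have the largest differences of the miR-99a/let-7c/miR-125b-2 cluster, while miR-99b-3p, miR-99b-5p and miR-125b-1-3p vary least between animals.

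In spontaneous disease no member passed, against 0.206% of 485 miRNAs, a single one, that were higher, and the median log2 fold change was 1.28 for the members and −0.09 for all miRNAs. At an unadjusted p under 0.05 there were 4 members and 90 miRNAs in all. The 4 were miR-100-5p (log2 fold change 1.37, standard error 0.38, adjusted p = 0.134), miR-99b-5p (0.74, standard error 0.25, adjusted p = 0.219), miR-99a-5p (1.67, standard error 0.67) and miR-125b-5p (1.40, standard error 0.57), the last pair with an adjusted p of 0.258. edgeR-robust and DESeq2 each called 1 member, miR-100-5p, with adjusted p values of 0.0421 and 0.0219, against 3.51% and 4.54% of the 485 miRNAs higher by these tools.

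The 4 animals did not behave alike. miR-99a-5p was at 5548 CPM in the lesion and 244.8 CPM in the eutopic endometrium of PA6762, and at 856.1 and 266.1 CPM in PA6627. It was at 2869 CPM in the lesion and 1987 CPM in the eutopic endometrium of PA5655, and at 2070 and 1524 CPM in PA6303. The differences within PA6762, PA6627, PA5655 and PA6303 were 4.50, 1.69, 0.53 and 0.44 on the log2 scale, and the smallest were in the animals with the highest eutopic levels. let-7c-5p was at 17396 CPM in the lesion and 808.7 CPM in the eutopic endometrium of PA6762, and at 3536 and 1554 CPM in PA6627. It was at 12552 CPM in the lesion and 7259 CPM in the eutopic endometrium of PA5655. Without PA6762 the log2 fold change of miR-99a-5p was 0.89 and that of let-7c-5p 0.67, and without PA5655 that of miR-99a-5p was 2.18.

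miR-100-5p also had its smallest log2 differences in PA5655 (0.16) and PA6303 (1.35), with 1.65 in PA6627 and 2.33 in PA6762. It was at 3290 CPM in the lesion and 652.1 CPM in the eutopic endometrium of PA6762, at 4278 and 1673 CPM in PA6303, at 1980.5 and 629.7 CPM in PA6627, and at 1607 and 1441 CPM in PA5655, so that PA6303 showed a clear difference and PA5655 hardly any. miR-125b-1-3p was at 113.4 to 130.9 CPM in the 4 lesions and at 48.69 to 95.77 CPM in the 4 eutopic endometria, and was again the only member whose groups did not overlap. Of all 485 miRNAs, 4.74% were higher in every spontaneous lesion than in every spontaneous eutopic endometrium.

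The next comparisons set spontaneous against induced disease. No member passed the test between spontaneous and induced lesions (0% of 467 miRNAs passed), between spontaneous and induced eutopic endometria (0% of 507) or in the size of the lesion effect (0% of 527). Unadjusted p values under 0.05 were found for 0 members and 37 miRNAs between the lesions, 2 members and 54 miRNAs between the eutopic endometria, and 0 members and 16 miRNAs for the lesion effect. In lesions the members' log2 differences ran between −0.18 for miR-125b-1-3p and 0.42 for let-7c-5p. The interval for miR-100-5p was −0.71 to 0.49 and that for miR-99a-5p −0.55 to 1.22, so that differences of that size were not detectable with 4 and 8 animals. DESeq2 and edgeR-robust also called 0 members in each of these 3 comparisons, against 0.214% and 1.5% of all miRNAs between the lesions, 0.592% and 2.17% between the eutopic endometria and 0.569% by each for the lesion effect.

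In eutopic endometrium miR-99a-5p was at 244.8, 266.1, 1524 and 1987 CPM in the spontaneous animals and at 282.5 to 658.0 CPM in the induced animals (log2 difference 1.18, standard error 0.46, adjusted p = 0.363). let-7c-5p was at 808.7, 1554, 4400 and 7259 CPM in spontaneous and 1017 to 3509 CPM in induced eutopic endometria (1.07, standard error 0.46, adjusted p = 0.400). In both, PA5655 and PA6303 lay above all induced eutopic endometria and PA6762 below them. PA6627 also lay below them for miR-99a-5p (266.1 CPM), but within their range for let-7c-5p (1554 CPM). PA5655 and PA6303 were also the eutopic libraries with the highest smooth muscle sums. With both left out, an alternative chosen after seeing the data, the members' median log2 difference was −0.54 in place of 0.49, and 0 members passed (0.598% of 502 miRNAs). The lesion effect was smaller in spontaneous disease by 0.70 for miR-99a-5p (standard error 0.70, adjusted p = 0.956), and the interval of that difference, −2.20 to 0.80, was wide.

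**Figure D4:**
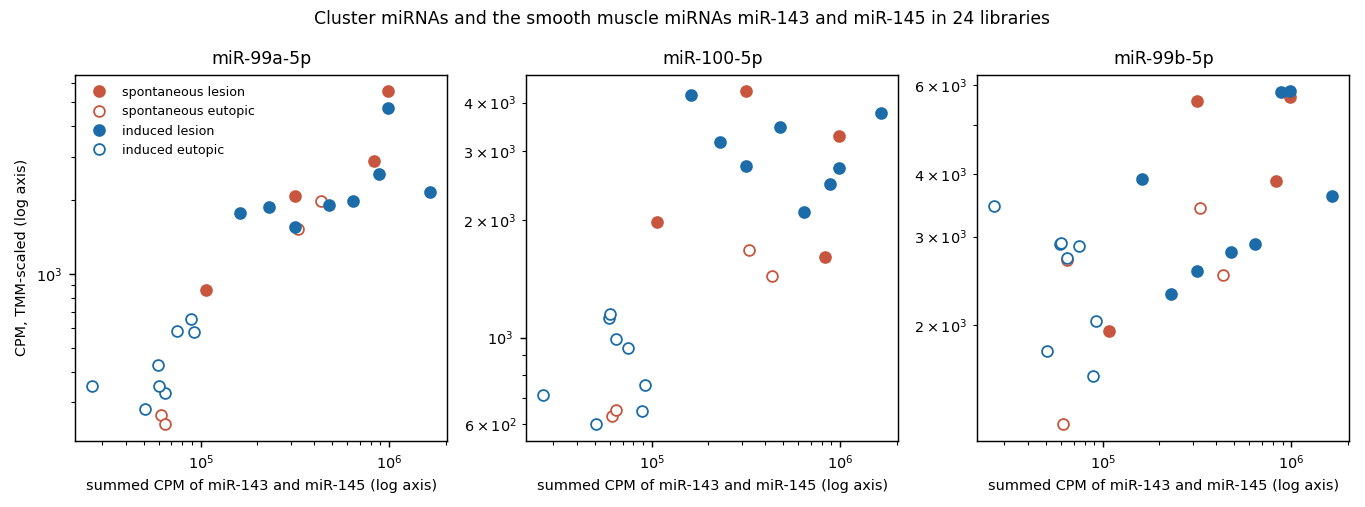
Levels of miR-99a-5p, miR-100-5p and miR-99b-5p in CPM (log axis) against the summed CPM of the smooth muscle miRNAs miR-143 and miR-145 (log axis) in 24 libraries, with filled points for lesions and open points for eutopic endometria. For miR-99a-5p the 2 spontaneous eutopic endometria at 433447 and 326995 CPM lie among the lesions, whereas for miR-100-5p these 2 lie at 1441 and 1673 CPM, below most lesions.

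The smooth muscle sum was set beside the members as a description over the 24 libraries, which share a tissue difference. The members' levels and this sum both carry the TMM factor of the library, 0.44 to 1.32 in lesions. No other scale was tried for these correlations, and the part of this factor in rho was not tested. Spearman's rho with that sum was 0.93 for miR-99a-5p, 0.91 for let-7c-5p, 0.89 for miR-125b-2-3p, 0.85 for miR-99a-3p and 0.84 for miR-125b-5p and miR-125a-5p. It was 0.73 for miR-100-5p, 0.67 for miR-125b-1-3p, 0.65 for miR-99b-3p and 0.54 for miR-99b-5p. Within the 12 lesions alone the order was another. There rho was 0.88 for miR-99a-5p, 0.74 for miR-125a-5p, 0.73 for let-7c-5p and miR-125b-2-3p, 0.69 for miR-99b-3p and 0.62 for miR-99b-5p. miR-99a-3p was at 0.57, miR-125b-5p at 0.49, miR-100-5p at −0.0070 and miR-125b-1-3p at −0.042. In the 12 eutopic endometria rho was 0.68 for miR-99a-5p, 0.42 for miR-100-5p and −0.21 for miR-99b-5p. By share of counts, PA7539 had the most miR-143-3p (71.7%) and the least miR-99a-5p (0.0940%) of the lesions. Among the members, the closest to miR-99a-5p was let-7c-5p (rho 0.93), the closest to miR-100-5p was its cluster neighbour miR-125b-1-3p (0.84), and the closest to miR-99b-5p was miR-99a-5p (0.64). Outside the members, the 5 miRNAs most like miR-99a-5p among 289 candidates were miR-28-5p (Spearman's rho 0.94), miR-145-3p (0.93), miR-143-3p (0.93), and miR-133a-3p and miR-143-5p (0.91 each). Of these, miR-143 and miR-145 were listed here as smooth muscle miRNAs and miR-133a-3p as a striated muscle miRNA, which need not be found in that tissue alone. The 5 outside the members most like miR-100-5p were others, miR-23a-3p (0.86), miR-338-3p (0.83), miR-664a-3p (0.83), miR-378i (0.78) and miR-24-3p (0.78). For miR-99b-5p the highest outside the members was miR-320a-3p (0.61). In the combined comparison the median log2 fold change was 2.43 over 4 smooth muscle miRNAs, 4.42 over 4 striated muscle, 1.11 over 2 endothelial, 3.47 over 4 erythroid and 1.43 over 4 leukocyte miRNAs. The striated muscle list held 7 miRNAs, of which 4 were tested and 3 rose, and the lowest log2 fold change was 0.25. Its members miR-206, miR-208a-3p and miR-208b-3p had no counts in 20, 22 and 22 of the 24 libraries. The part of any of these cell types in the members' rises was not tested.

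Ratios of a pair of miRNAs counted in the same library need no scaling between libraries, and so show unequal change between the clusters on any scale. Of 10 such ratios, 7 differed between lesion and eutopic endometrium (two-sided exact sign-flip permutation test over 12 animals, Benjamini-Hochberg over the 10, smallest possible p 4.88e-04). miR-99a-5p gained on miR-99b-5p, its relative in the third cluster. Per count of miR-99b-5p there were 0.439 to 0.815 counts of miR-99a-5p in induced lesions and 0.101 to 0.416 in induced eutopic endometria. The mean log2 difference was 1.57 (standard error 0.32, exact permutation adjusted p = 0.00488, higher in 10 of 12 animals), with PA5655 and PA6303 as exceptions. miR-100-5p gained on miR-99b-5p by 1.09 (standard error 0.24, exact permutation adjusted p = 0.00488, 11 of 12 animals).

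The steadiest gains were those of miR-125b-5p on miR-125a-5p and of let-7c-5p on let-7e-5p, the let-7 miRNA of the miR-99b/miR-125a cluster, both in 12 of 12 animals. Per count of miR-125a-5p there were 0.798 to 0.899 counts of miR-125b-5p in spontaneous lesions and 0.283 to 0.742 in spontaneous eutopic endometria, and 0.683 to 1.14 in induced lesions and 0.347 to 0.610 in induced eutopic endometria. These groups did not overlap in either disease. The mean log2 difference was 0.94 (standard error 0.13, exact permutation adjusted p = 0.00244). For let-7c-5p over let-7e-5p it was 1.66 (standard error 0.23, exact permutation adjusted p = 0.00244).

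Within the pair of clusters that both make miR-125b, the 3p arms shifted towards the miR-99a/let-7c/miR-125b-2 cluster. Per count of miR-125b-1-3p there were 1.83 to 9.67 counts of miR-125b-2-3p in induced lesions and 0.805 to 4.44 in induced eutopic endometria, which overlap. The mean log2 difference over 12 animals was 0.98 (standard error 0.38, exact permutation adjusted p = 0.0244, higher in 10 of 12 animals). In the spontaneous animals the ratio was 12.4 in the lesion and 1.27 in the eutopic endometrium of PA6762, 9.79 and 7.32 in PA5655, 2.18 and 2.48 in PA6627, and 1.93 and 3.60 in PA6303, so that the lesion had the higher ratio in 2 of 4. By contrast the 5p miRNAs of the same pair of clusters, miR-99a-5p and miR-100-5p, did not pass (0.48, standard error 0.31, exact permutation adjusted p = 0.158, higher in 9 of 12 animals).

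**Figure D5:**
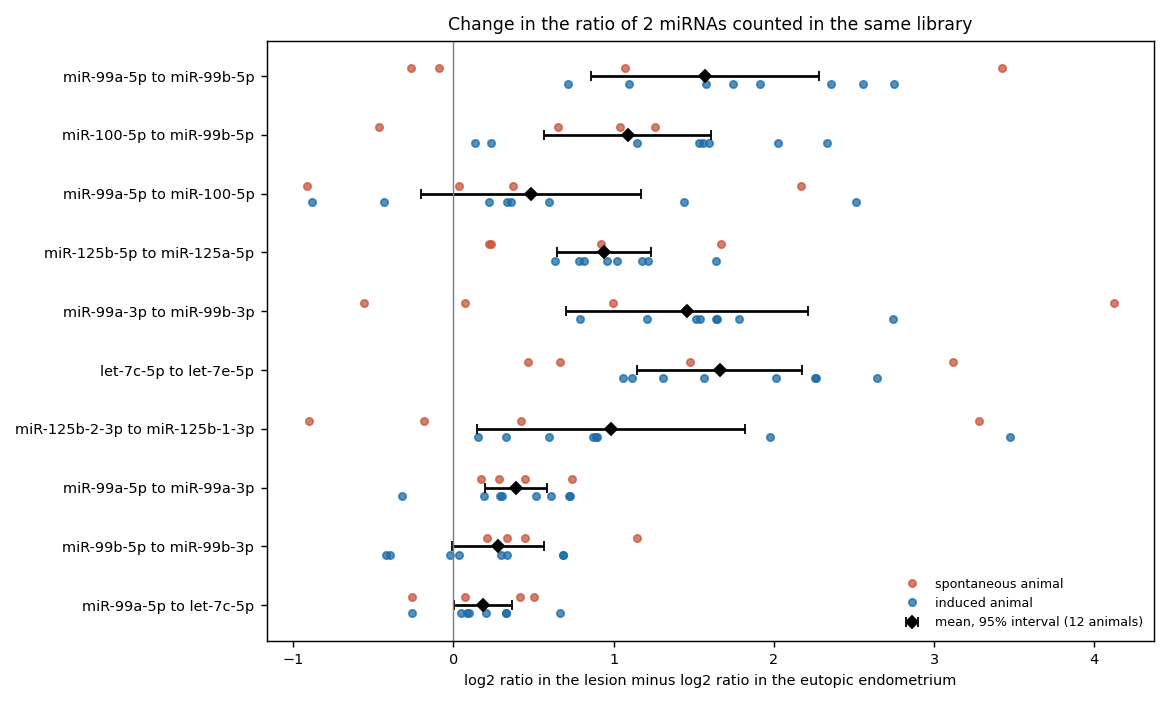
Change of 10 within-library ratios between lesion and eutopic endometrium on the log2 scale, with a point for each spontaneous and induced animal and the mean with its 95% interval over 12 animals. The ratios of miR-125b-5p to miR-125a-5p and of let-7c-5p to let-7e-5p are above 0 in all 12 animals.

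The arms of the miR-99a hairpin also moved unequally. miR-99a-5p gained on miR-99a-3p by 0.39 (standard error 0.09, exact permutation adjusted p = 0.00570) in 11 of 12 animals, with 16.9 to 63.2 counts of the 5p arm per count of the 3p arm in induced lesions and 14.8 to 38.3 in induced eutopic endometria. With lesions and eutopic endometria compared as unpaired groups this call was lost (permutation adjusted p = 0.161). Between miR-99b-5p and miR-99b-3p the change was 0.28 (exact permutation adjusted p = 0.0619), and within a cluster, between miR-99a-5p and let-7c-5p, it was 0.18 (exact permutation adjusted p = 0.0580). The first of these passed without PA7223 (exact permutation adjusted p = 0.0307) or PA7539 (0.0269), and the other without PA7539 or PA5655 (0.0251 each). miR-99a-3p gained on miR-99b-3p by 1.46 (exact permutation adjusted p = 0.00488, 11 of 12 animals). In the 8 induced animals alone, 6 of these 10 ratios passed, each in 8 of 8 animals at the smallest p that 8 pairs allow, 0.00781 (exact permutation adjusted p = 0.0130). The 4 spontaneous pairs cannot reach a p under 0.05 (the smallest they allow is 0.13, rounded) and were not tested alone. None of the 10 ratios passed between spontaneous and induced disease in either tissue (20 exact permutation tests, lowest adjusted p = 0.860).

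Correlations over animals were taken in each tissue apart, 12 relations in all. They used TMM-scaled log2 CPM, so that both miRNAs of a relation carry the same factor in a library, 0.44 to 1.32 in lesions. No other scale was tried, and the part of this shared factor in r was not tested. miR-99a-5p and let-7c-5p, from the same cluster, went together in lesions (Pearson's r = 0.87, permutation adjusted p = 6.80e-04, Spearman's rho = 0.72, permutation adjusted p = 0.0334, n = 12) and in eutopic endometria (r = 0.94, permutation adjusted p = 2.40e-04, rho = 0.86, permutation adjusted p = 0.00486, n = 12). Without the 2 libraries farthest from the median of miR-99a-5p, r was 0.73 in lesions and 0.84 in eutopic endometria, and over the 8 induced animals it was 0.77 and 0.91. miR-99a-5p also went with miR-125b-5p in eutopic endometria (r = 0.93, permutation adjusted p = 2.40e-04, rho = 0.89, permutation adjusted p = 0.00456), and r was 0.82 without the 2 farthest libraries. In lesions r was 0.79 for this relation (permutation adjusted p = 0.00554), but rho was 0.51 (permutation adjusted p = 0.162) and r without the 2 farthest was 0.50.

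miR-99a-5p and miR-100-5p, alike in sequence but from different clusters, had an r of 0.09 in lesions (permutation adjusted p = 0.780, rho −0.06). In eutopic endometria r was 0.72 (permutation adjusted p = 0.0148), but it was 0.23 without the 2 farthest libraries, PA5655 and PA6303, and −0.08 over the 8 induced animals, so that it rests on those 2 libraries. The relation of miR-100-5p with miR-125b-5p did not pass in either tissue (r = 0.24 in lesions and 0.58 in eutopic endometria, permutation adjusted p = 0.501 and 0.0891), although miR-125b-1 is its cluster neighbour. miR-99b-5p and miR-125a-5p, neighbours in the third cluster, had an r of 0.52 in lesions and 0.45 in eutopic endometria (permutation adjusted p = 0.128 and 0.188). On the TMM scale miR-99a-5p and miR-99b-5p, from different clusters, went together in lesions (r = 0.79, permutation adjusted p = 0.00300, rho = 0.80, permutation adjusted p = 0.0112, r = 0.67 without the 2 farthest libraries) and had an r of 0.24 in eutopic endometria. Whether this relation in lesions holds without the TMM factor that both miRNAs carry was not tested. Of the 12 relations 6 passed by r and 4 by both measures.

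Of the 6 other miRNAs from these clusters, 5 could be tested in the combined comparison and 2 rose. let-7c-3p, the rare arm of the let-7c hairpin, was at 2.87 to 14.1 CPM in lesions and 0.542 to 3.85 CPM in eutopic endometria, and rose by 1.66 (standard error 0.29, adjusted p = 5.36e-04) in 12 of 12 animals. miR-100-3p, the rare arm of miR-100, was at 1.41 to 6.71 CPM in lesions and 0.607 to 2.10 CPM in eutopic endometria and rose by 1.46 (standard error 0.26, adjusted p = 5.36e-04), also in 12 of 12. At these levels a library holds few counts, 4 to 65 for let-7c-3p and 2 to 35 for miR-100-3p. In the miR-99b/miR-125a cluster, let-7e-5p (log2 fold change 0.32, adjusted p = 0.102), let-7e-3p (0.40, adjusted p = 0.101) and miR-125a-3p (0.22, adjusted p = 0.285) did not pass. let-7a-2-3p, next to miR-100, had at most 11 counts in a library and was not tested.

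Among 8 let-7 relatives with the same seed as let-7c-5p, only miR-98-5p rose (0.65, standard error 0.17, adjusted p = 0.00493), and the median over the 8 was 0.22. let-7a-5p, which is very like let-7c-5p in sequence, was at 0.18 (standard error 0.15, adjusted p = 0.318). miR-10a-5p and miR-10b-5p, distant relatives of the miR-99/100 family, were at 0.45 (adjusted p = 0.0559) and −0.15 (adjusted p = 0.480). How reads that match several of these near-identical miRNAs were assigned is not given in the sources used here, so that an exchange of reads between miR-99a-5p and miR-100-5p, or between let-7c-5p and let-7a-5p, was not tested.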

How the data were processed

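Per the labels and the study's methods, the authors trimmed reads with Trim Galore 0.3.3, mapped them to human miRNAs with miRDeep2 and deposited raw counts per mature miRNA, precursor and library, which they tested with edgeR 3.22.5 in its robust form. For mismatch settings, nothing is given in the sources used here. Each miRNA was represented by its precursor of highest total. R 4.3.3 was used with edgeR 4.0.16, limma 3.58.1 and, as an alternative, DESeq2 1.42.0. The edgeR fit was the robust quasi-likelihood one with TMM factors, on miRNAs reaching 2 CPM in 2 or more of the libraries compared, with Benjamini-Hochberg adjustment and a threshold of 0.05. The standard error is the log2 fold change over the square root of F.

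Both tissues of an animal carry its identifier in the labels, so the animal was a block; their deviations from the group means correlated at −0.14 to 0.48 (above 0.1 in 7 of 12 animals). Levels are CPM with TMM factors over 24 libraries. Log2 CPM used a prior count of 1, ratios added 0.5 to each count, and correlations used 100000 permutations. Within a group no library was a copy of another (chi-square per degree of freedom at least 134.6 over 68 pairs). A count of 3 lies at 0.319 to 1.41 CPM, a floor for counting error only. The fits were tested on simulated data.

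All 10 members are named, and as most similar the 5 miRNAs outside the members with the highest rho at a mean log2 CPM of 3 or more. Members, lists and alternatives were chosen with earlier results of these data known.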

Additional observations from a re-analysis of the deposited data

Results flagged for a closer look

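The induced lesion of PA7524 stood apart from the other induced lesions for miR-99a-5p, at 4732 CPM against 1558 to 2550 CPM in the other 7. Its gap to the next lesion was 0.557 of the range of the group on the log2 scale, where a gap above 0.526 is taken as standing apart for 8 samples. It was the only such library among 40 groups checked, 4 groups for each of the 10 members, and chance gives about 1 such group in 20. Without PA7524 the log2 fold change of miR-99a-5p was 2.17 in induced disease, against 2.34 with it.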

How the results depend on the processing

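With library totals in place of TMM, 6 of 10 members passed in the combined comparison. The values that turned below 0 were, combined, miR-125b-1-3p −0.030, miR-99b-5p −0.25 and miR-99b-3p −0.53; induced, miR-125b-1-3p −0.13, miR-99b-5p −0.46, miR-99b-3p −0.62 and miR-125a-5p −0.030; and spontaneous, miR-99b-3p −0.33. miR-143-3p holds much of the lesion counts, and with library totals taken without it (chosen after seeing the data) 9, 8 and 0 members passed in the combined, induced and spontaneous comparisons (16.4%, 15.0% and 0.396% of all miRNAs higher), and only spontaneous miR-99b-3p was below 0 (−0.022). In the spontaneous comparison 4 members passed without a filter (3.28% of 945 miRNAs higher), 1 by edgeR-robust and 1 by DESeq2, against 0. The cause was not tested. Without the animal as a block, 10 members passed in the combined, 8 in the induced and 0 in the spontaneous comparison (24.9%, 22.9% and 0% of all miRNAs higher), and 6 of 10 paired ratios. With each animal left out in turn, 9 to 10 members passed in the combined and 8 to 9 in the induced comparison, 0 in the others, and 7 to 9 ratios. Deposited counts summed over precursors, DESeq2's size factors and edgeR's own filter kept every count within 1.5 times. Depth limits let-7a-2-3p, with at most 11 counts in a library, and then miR-100-3p and let-7c-3p, with at most 35 and 65.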
